A study of Saccharomyces cerevisiae with 4 samples.

Results

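The genes described here encode enzymes of branched-chain, aromatic, histidine, lysine, threonine and serine synthesis in the yeast Saccharomyces cerevisiae, together with GCN4, the transcription factor that activates many of them. The rule that picks them uses gene names only, though the names were chosen with earlier results of these data known. It gave GCN4 and 44 enzyme genes. The enzyme genes were 11 of the branched-chain pathway, 12 of the aromatic pathway, 7 of histidine, 8 of lysine, 2 of threonine and 4 of serine synthesis. All 45 were found among the 6336 gene probes of a printed oligonucleotide array. Transcript levels were compared between strains on arrays hybridised with the RNA of 2 strains at a time. The evolved strains were TAT12, which was derived from TTY23 under acetic acid at low pH, AT22, which was derived from S288C under the same acid conditions, and TTY23, which was derived from S288C at elevated temperature. S288C is the wild-type parent of the MATα mating type. Each evolved strain was a selected isolate, so a difference between strains is a difference between these isolates. All 4 strains were grown at 30 °C, pH 5.0 and 250 rpm with 2% glucose, in a defined minimal medium to which no amino acids are listed as added, and without the acid or heat of the evolution. The comparisons were AT22 over S288C, TAT12 over S288C, TAT12 over TTY23 and TAT12 over AT22. No array paired TTY23 with S288C.

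Yeast cells that run short of an amino acid, or that carry uncharged tRNA, activate the general amino acid control. In that response the kinase Gcn2 phosphorylates the translation initiation factor eIF2, the translation of GCN4 mRNA increases, and the Gcn4 protein activates genes in most amino acid pathways. GCN4 is therefore regulated largely at the level of translation and protein stability, and its mRNA level is only a part of its activity. In minimal medium all of these pathways are in use, since the cell has to make each amino acid itself.

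Each comparison was a dye swap, in which the same pair of strains was hybridised on 2 arrays with the dyes exchanged, and it counted as 1 replicate. The values are log2 ratios of normalised intensity, averaged over the duplicate spots of an array and then over both arrays, with positive values for a higher level in the first-named strain. For each gene the distance of its ratio from the average of the 100 genes of most similar intensity was divided by their standard deviation, and the gene was called where this z-score was above 2 in absolute size, the threshold of the study. With 1 replicate no p-value belongs to a z-score. The labels do not say whether a strain's RNA came from more than 1 culture. Ratios of dim spots are compressed towards 0 by the offset of 50 units added in the background correction.

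The arrays of a swap agreed poorly for these genes. The ratios of the 45 genes on the first and the second array, turned to the same direction, correlated at r = -0.18 for AT22 over S288C, 0.14 for TAT12 over S288C, 0.39 for TAT12 over TTY23 and 0.10 for TAT12 over AT22, against -0.03, 0.092, 0.13 and -0.17 over all genes. These are correlations across genes of the same pair of strains, and genes are not independent replicates. Duplicate spots within an array correlated at r = 0.77 to 0.95 for the 45 genes. The second array of AT22 over S288C ran against the second array of TAT12 over S288C, with r = -0.59 over all genes, although both carried S288C in the same dye. The direction of these arrays is therefore not settled. The correlation does not say whether either of the pair runs backwards, or which, and what lies behind it was not tested. The values that the calls and the medians rest on are given as labelled. They are also given with the second array of the comparison turned, which was done for AT22 over S288C and for TAT12 over S288C, 1 at a time.

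Few of the 45 genes were called in any comparison. For AT22 over S288C 2 genes were called, which is 4.44% of the 45, against 4.62% of all genes. For TAT12 over S288C it was 1 gene, 2.22% against 5.05%. For TAT12 over TTY23 it was 3 genes, 6.67% against 5.51%. For TAT12 over AT22 it was 2 genes, 4.44% against 4.28%. With the second AT22 and S288C array turned, 2 genes were again called, against 4.02% of all genes, but they were HIS1 and SER33 in place of GCN4 and THR1, and SER33 was not above background there. Turning the second array of TAT12 over S288C instead gave 2 called genes, TRP4 and THR4 in place of TRP2, which is 4.44% of the 45 against 4.91% of all genes. Across the 4 comparisons as labelled 7 of the 45 genes (15.6%) were called at least once, against 16.2% of all genes, and 38 were called in none. All the ratios called as labelled had the same sign on both arrays, which a call on their mean favours. Of all genes called, this held for 276 of 293, 270 of 320, 317 of 349 and 236 of 271, in the order above. At a lower threshold, an absolute z-score above 1, the counts were 10, 9, 11 and 11 of 45 in the order above, against 29.2%, 30.8%, 29.0% and 30.1% of all genes. Turned, AT22 over S288C had 16 such genes (35.6%), against 32.2% of all genes, and TAT12 over S288C had 9 (20.0%), against 28.0%. The share of these genes that was called at 2 was thus close to that of the array as a whole.

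**Figure D1:**
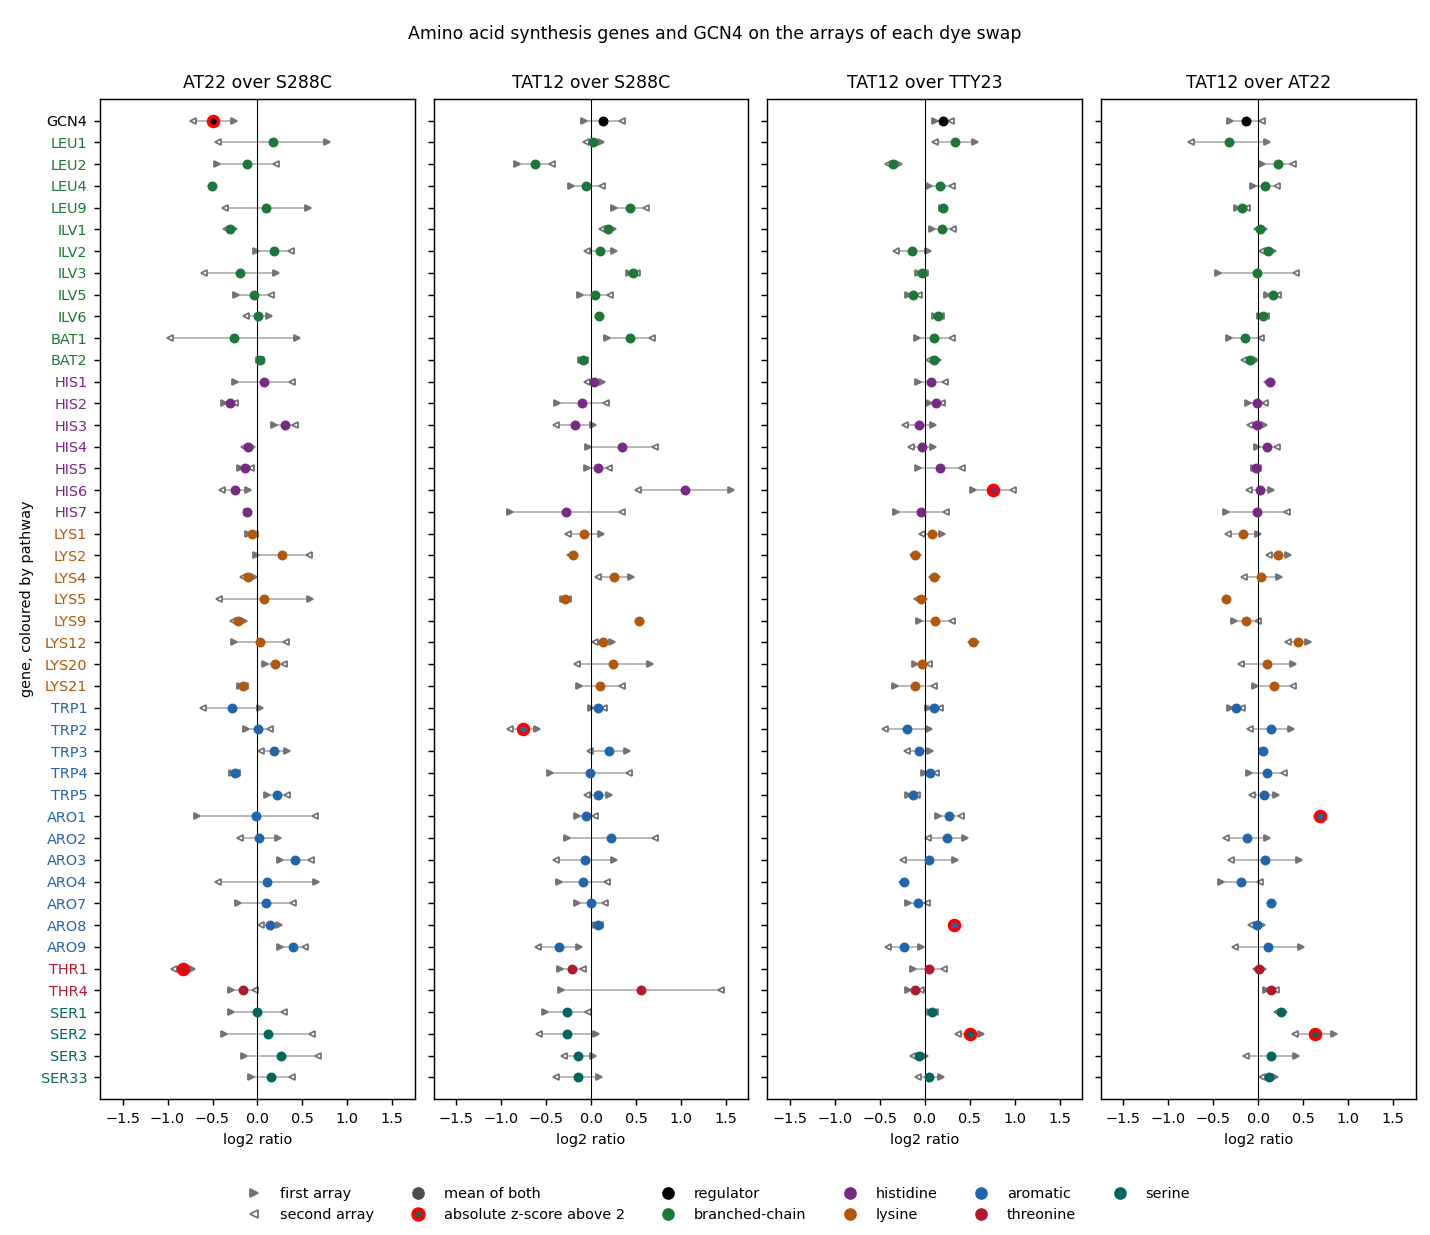
Log2 ratio (horizontal axis) of the 45 genes (vertical axis, coloured by pathway) in the 4 comparisons, with a filled triangle for the first array, an open triangle for the second and a circle for their mean. Red rings mark the 2, 1, 3 and 2 genes past an absolute z-score of 2, and the grey lines between the arrays cross 0 for many genes. The dimmest genes are drawn too, although their ratios have no measured size.

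GCN4 was called in AT22 over S288C only. Its normalised intensity was 242 and 223 in AT22 on the first and the second array, against 289.65 and 367 in S288C. S288C was thus the brighter strain on both arrays, by a little on the first and by more on the second. The log2 ratio was -0.26 on the first array and -0.72 on the second, a mean of -0.49 with z = -2.11, or 0.713-fold. The z-score that the authors deposited for GCN4 in this comparison was -1.83, which is not past the threshold. With the second array turned the mean was 0.23 and the z-score 0.77, so the call and its direction rested on how that array is read. GCN4 had ratios of -0.08 and 0.34 in TAT12 over S288C, with a mean of 0.13 as labelled and -0.21 with that comparison's second array turned. It had 0.12 and 0.29 in TAT12 over TTY23, with a mean of 0.21. It had -0.32 and 0.04 in TAT12 over AT22, with a mean of -0.14. None of these means passed the threshold, and in TAT12 over S288C as labelled and in TAT12 over AT22 the arrays disagreed in sign.

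The largest absolute ratio among the 45 genes in AT22 over S288C, as labelled, was that of a threonine gene. THR1 encodes homoserine kinase, which feeds the last step of threonine synthesis, the reaction of the threonine synthase THR4. THR1 had a normalised intensity of 127 and 165 in AT22, against 211 and 313 in S288C. S288C was the brighter strain on each array. Log2 ratios of THR1 were -0.73 and -0.92, with a mean of -0.83 and z = -3.19, or 0.564-fold. With the second array turned, the mean was 0.10. THR4 was at -0.30 and -0.03, a mean of -0.16 that was not called, or -0.13 turned. THR4 in TAT12 over S288C had a mean of 0.55 and z = 1.72, made of -0.34 on the first array and 1.44 on the second. The intensity of THR4 there was 83.3 and 623 in TAT12, against 105 and 229.61 in S288C, and the signal of TAT12 on the first array was not above background. Turning the second array there put THR4 at -0.89 with z = -3.38, so that the direction of THR4 rested on how that array is read. The authors' z-score for THR4 in this comparison was -0.76, opposite in sign to the 1.72 found here as labelled. THR1 was at -0.22 in TAT12 over S288C, 0.04 in TAT12 over TTY23 and 0.01 in TAT12 over AT22, none of them called.

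As labelled, the serine genes were the only pathway with all members on the same side of 0 in both TAT12 over S288C and TAT12 over AT22. The path runs from 3-phosphoglycerate through the dehydrogenases SER3 and SER33, the transaminase SER1 and the phosphatase SER2. SER2 was the only gene of the 45 called in 2 comparisons. Its intensity in TAT12 over AT22 was 264 and 175 in TAT12, against 147 and 132 in AT22, where the second array was not above background. TAT12 was the brighter strain on both arrays. The ratios were 0.84 and 0.41 on the log2 scale, with a mean of 0.63 and z = 3.44, or 1.54-fold. Against TTY23, SER2 had 343 and 315 in TAT12, against 222 and 244 in TTY23. TAT12 was again the brighter strain on each array, though both arrays belong to 1 dye swap. Log2 ratios of 0.63 and 0.37 gave a mean of 0.50 with z = 2.51, or 1.41-fold.

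Against S288C the picture for SER2 was different. Its ratios in TAT12 over S288C were 0.05 and -0.58, with a mean of -0.26 and no call, or 0.31 turned. SER2 was at -0.37 and 0.60 in AT22 over S288C, with a mean of 0.11, or -0.49 with the second array turned. All 4 serine genes had a mean below 0 in TAT12 over S288C, with a median of -0.21, and only SER1 was below 0 on both arrays, at -0.51 and -0.03. Turned, that median was 0.20 and SER1 alone was below 0. Over AT22, all 4 means of TAT12 were above 0, with a median of 0.19, and SER1 had 0.29 and 0.21. For AT22 over S288C the serine median was 0.14 as labelled and none of the 4 had the same sign on both arrays. With the second array turned all 4 were below 0 on both arrays, with a median of -0.35. SER33 was not above background in any of the 4 comparisons, so its ratios have no measured size. A median over 4 genes of which 1 was not above background is a description only.

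**Figure D2:**
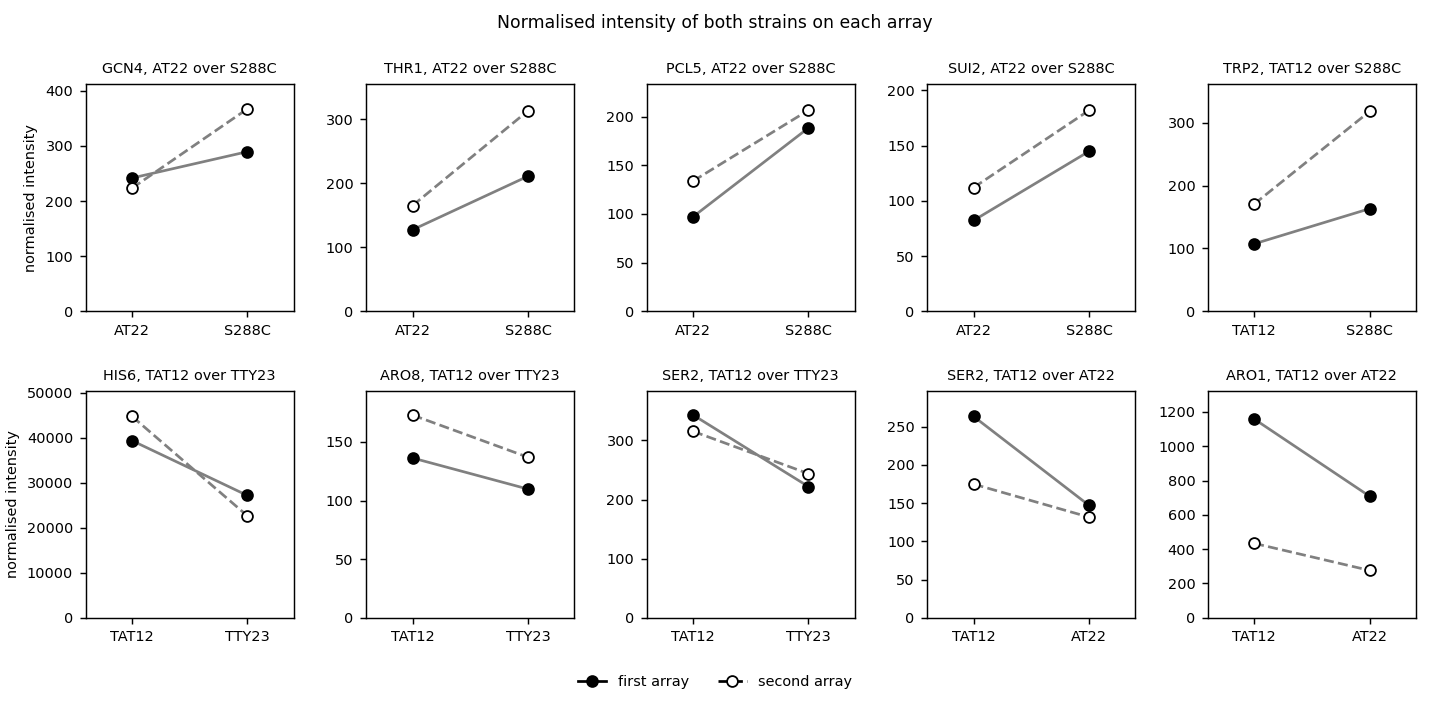
Normalised intensity (vertical axis, arbitrary units, from 0) of both strains (horizontal axis) on the first array (filled, solid line) and the second array (open, dashed line) for the called genes GCN4, THR1, TRP2, HIS6, ARO8, SER2 and ARO1, and for PCL5 and SUI2. The line runs the same way on both arrays in every panel, which a call on the mean favours. The height of a panel's lines differs between arrays, as for ARO1 with 1159 and 434 in TAT12.

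The aromatic pathway had 3 called genes as labelled, each in another comparison, where 1 of its 12 genes is 8.33%, against 5.05%, 5.51% and 4.28% of all genes in TAT12 over S288C, TAT12 over TTY23 and TAT12 over AT22. It starts with the DAHP synthases ARO3 and ARO4, passes through the pentafunctional enzyme ARO1 and the chorismate synthase ARO2, and divides at chorismate into the tryptophan branch and the chorismate mutase ARO7. TRP2, a subunit of anthranilate synthase at the head of the tryptophan branch, was called lower in TAT12 than in S288C. Its intensity was 107 and 171 in TAT12, against 163 and 318 in S288C, and the first array of TAT12 was not above background. Log2 ratios of TRP2 were -0.61 and -0.90, with a mean of -0.75 and z = -2.79, or 0.594-fold. The mean became 0.15 with z = 0.69 once that comparison's second array was turned, so this call too rested on the reading of an array. TRP2 was at 0.00 in AT22 over S288C (-0.14 turned), -0.20 in TAT12 over TTY23 and 0.14 in TAT12 over AT22. The other tryptophan genes TRP1 and TRP4, which act after TRP2, were at 0.07 and -0.02 in TAT12 over S288C as labelled. TRP4 was called there when turned, at -0.44 with z = -2.02, while TRP3 and TRP5 were not above background in that comparison.

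ARO1 was called in TAT12 over AT22. Its intensity was 1159 and 434 in TAT12, against 709 and 276 in AT22. TAT12 was brighter on each array, although the arrays themselves differed in level by more than the strains. The log2 ratios of 0.71 and 0.65 were close to each other, with a mean of 0.68, z = 2.05 and 1.60-fold, just past the threshold. The arrays of AT22 over S288C gave -0.67 and 0.64, which cancelled to -0.02 as labelled and became -0.65 with the second array turned. ARO1 was at -0.06 in TAT12 over S288C.

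ARO8, an aromatic aminotransferase, was called in TAT12 over TTY23. Its intensity was 136 and 173 in TAT12, against 109.82 and 137 in TTY23. ARO8 was higher in TAT12 by 0.31 and 0.34 on the log2 scale, with a mean of 0.32 and z = 2.74, or 1.25-fold. This was the smallest called ratio among the 45 genes, and it was past the threshold because genes of like intensity varied little in this comparison. ARO9, the other aromatic aminotransferase, was at -0.23 in that comparison and not called. As labelled, ARO3 had the highest ratio of the pathway in AT22 over S288C, 0.25 and 0.60 with a mean of 0.42, which was not called. Its mean was -0.18 when turned, and the highest was then ARO4 at 0.55. TRP1 was the lowest as labelled, at -0.29, with 0.03 and -0.60 on the arrays and 0.32 turned. ARO2 was the highest in TAT12 over S288C, at 0.22, with -0.27 and 0.71 on the arrays and -0.49 turned. Each of these extremes thus changed sign with the reading of an array. ARO3 was scanned at up to 64596 units, and no spot of a member was at the limit of the scanner.

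In histidine synthesis HIS6 was the only gene called as labelled. As labelled, TAT12 was also the brighter strain for HIS6 on all 4 arrays that set it against S288C or TTY23. With the second array of TAT12 over S288C turned, S288C was the brighter strain on that array. HIS6 encodes an isomerase in the middle of the pathway. Its intensity in TAT12 over TTY23 was 39350 and 44741 in TAT12, against 27162 and 22630 in TTY23. TAT12 was the brighter strain on each array of this swap. This gave log2 ratios of 0.53 and 0.98, with a mean of 0.76 and z = 2.32, or 1.69-fold. Against S288C the intensity was 25971 and 23937 in TAT12, against 8815 and 16614 in S288C. Log2 ratios of HIS6 were 1.56 and 0.53, and the mean of 1.04 was the largest of any member in any comparison as labelled. It was not called, with z = 1.63 (0.52 and z = 1.21 turned), as bright genes varied widely there. HIS6 in AT22 over S288C was at -0.11 and -0.39, a mean of -0.25, or 0.14 with the second array turned. It was at 0.14 and -0.10 in TAT12 over AT22, with a mean of 0.02.

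The other 6 histidine genes were not called as labelled. HIS3, the imidazoleglycerol-phosphate dehydratase, had the highest ratio in AT22 over S288C as labelled, 0.18 and 0.42 with a mean of 0.30, and HIS2, the histidinol-phosphatase, the lowest, -0.37 and -0.24 with a mean of -0.31. Turned, HIS3 was at -0.12 and HIS2 at -0.06, and the extremes were HIS6 at 0.14 and HIS1 at -0.32. HIS7 illustrates the spread between arrays. It had -0.91 and 0.34 in TAT12 over S288C, with a mean of -0.28. In TAT12 over AT22 the ratios lay between -0.03 for HIS5 and 0.09 for HIS4, leaving out HIS1, which was not above background there.

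None of the 11 branched-chain genes was called. LEU2, the isopropylmalate dehydrogenase, had the lowest ratio in TAT12 over S288C. Its intensity was 924 and 4985 in TAT12, against 1638.5 and 6715 in S288C. TAT12 was the dimmer strain on each array, while the arrays lay far apart. The log2 ratios were -0.83 and -0.43, with a mean of -0.63 and z = -1.10, or -0.20 turned. LEU2 was also below 0 on both arrays of TAT12 over TTY23, at -0.28 and -0.41, with a mean of -0.35, and it was at 0.04 and 0.39 in TAT12 over AT22. ILV3, the dihydroxyacid dehydratase shared by the isoleucine and valine paths, had the highest ratio in TAT12 over S288C, 0.42 and 0.51 with a mean of 0.47, or -0.04 turned. ILV2, a subunit of acetolactate synthase, was at 0.18 in AT22 over S288C, with -0.01 and 0.37 on the arrays and -0.19 turned. LEU4 was the lowest in AT22 over S288C, with -0.49 and -0.52 and a mean of -0.50, or 0.01 with the second array turned. LEU1, the isopropylmalate isomerase, was at 0.78 and -0.43 in the same comparison, which gave 0.17 as labelled and 0.61 with the array turned.

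None of the 8 lysine genes was called either. LYS12, the homoisocitrate dehydrogenase, had the highest ratio of the pathway in both comparisons of TAT12 with an evolved strain. Its intensity was 2299 and 2435.5 in TAT12, against 1549 and 1711 in TTY23. The ratios of this probe were 0.57 and 0.51, a mean of 0.54 with z = 1.46. The array carries a second LYS12 probe, marked R in its identifier, which gave -0.15 and -0.02 in the same comparison. The probes of this gene thus differed in direction. LYS12 in TAT12 over AT22 was at 0.55 and 0.33, a mean of 0.44, and the second probe at 0.01 and 0.26. LYS9, the saccharopine dehydrogenase that forms saccharopine, had 0.55 and 0.52 in TAT12 over S288C, a mean of 0.53, or 0.02 turned. LYS2 was the highest of the pathway in AT22 over S288C as labelled, at 0.28, with -0.02 and 0.57 on the arrays and -0.30 turned. LYS21 was the lowest in TAT12 over TTY23, at -0.11, with -0.33 and 0.10. LYS5, which activates the aminoadipate reductase LYS2, was lower in TAT12 than in AT22 on both arrays, at -0.35 and -0.36, without a call.

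Second probes were also present for ILV6, the regulatory subunit of acetolactate synthase, and for BAT1. The probes of BAT1, the mitochondrial branched-chain aminotransferase, gave a mean of 0.43 and of 0.11 in TAT12 over S288C. Those of ILV6 gave 0.00 and -0.24 in AT22 over S288C. What the R in these identifiers marks is not given in the sources used here.

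Several steps are run by a pair of isozymes, and in 10 of 24 pair comparisons as labelled the difference within a pair had the same sign on both arrays. LEU4 and LEU9 are the isopropylmalate synthases at the head of leucine synthesis. LEU4 in TAT12 over S288C was at -0.05 and LEU9 at 0.43, and the difference was -0.48 on the first array and -0.49 on the second. It was -1.055 and -0.15 in AT22 over S288C as labelled, and 0.18 and 0.34, the other way, in TAT12 over AT22. BAT1 and the cytosolic BAT2 were at 0.43 and -0.09 in TAT12 over S288C, a difference of 0.29 and 0.74 on the arrays. ARO8 and ARO9 differed by 0.35 and 0.75 in TAT12 over TTY23 and by 0.19 and 0.69 in TAT12 over S288C, with the ratio of ARO8 the higher. In AT22 over S288C as labelled the difference ran the other way, at -0.02 and -0.49. The homocitrate synthases LYS20 and LYS21 differed the same way on both arrays only in AT22 over S288C, by 0.28 and 0.43 as labelled, which become opposite signs with the second array turned. ARO3 and ARO4 differed by 0.55 and 0.01 in TAT12 over TTY23 and in opposite directions on the arrays elsewhere. SER3 minus SER33 was 0.10, 0.01, -0.12 and 0.02 from AT22 over S288C to TAT12 over AT22, with SER33 not above background. In AT22 over S288C and TAT12 over S288C a difference of like sign on both arrays becomes 1 of opposite signs when an array is turned. With 1 replicate none of these differences was tested.

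Set side by side, the medians of the 4 larger pathways lay near 0 in all comparisons. The median ratio of the 45 genes was 0.00 in AT22 over S288C (-0.03 with the second array turned), 0.04 in TAT12 over S288C (-0.02 turned), 0.06 in TAT12 over TTY23 and 0.05 in TAT12 over AT22, against 0.03 (0.00), 0.02 (0.00), 0.01 and -0.01 over all genes. The branched-chain medians were -0.04, 0.09, 0.11 and 0.02 in the same order. The histidine medians were -0.11, 0.04, 0.07 and -0.02. The lysine medians were -0.02, 0.12, 0.03 and 0.07. The aromatic medians were 0.10, -0.01, -0.01 and 0.07. The threonine medians, over 2 genes, were -0.49, 0.17, -0.04 and 0.08. The serine medians were 0.14, -0.21, 0.07 and 0.19. Turned, the medians in AT22 over S288C were 0.04 for branched-chain, -0.06 for histidine, -0.03 for lysine, -0.07 for aromatic, -0.02 for threonine and -0.35 for serine genes. In TAT12 over S288C they became -0.04, -0.12, 0.06, -0.05, -0.51 and 0.20 in this order of pathways. Outside the threonine and serine genes no pathway median reached 0.13 in either direction in these readings, and within each of these larger pathways ratios of both signs were present in every comparison.

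**Figure D3:**
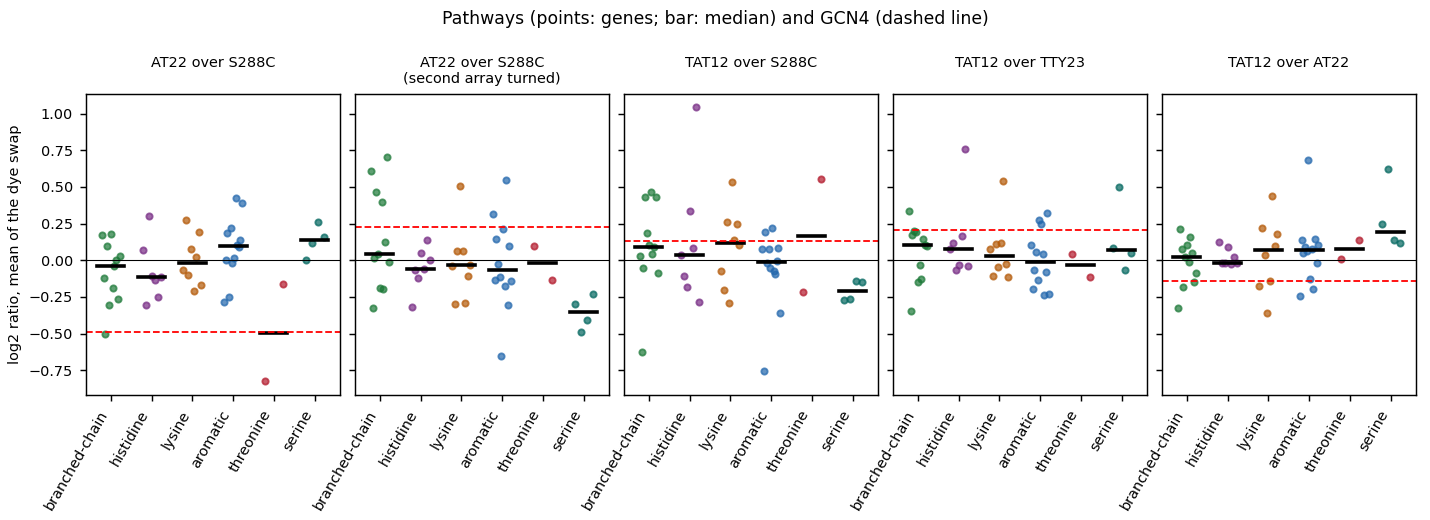
Log2 ratio of the dye swap (vertical axis) of each enzyme gene (points) by pathway (horizontal axis), with the pathway median (black bar) and GCN4 (red dashed line), for AT22 over S288C as labelled and with its second array turned and for the 3 TAT12 comparisons. The GCN4 line lies at -0.49, 0.23, 0.13, 0.21 and -0.14, while the medians of the branched-chain, histidine, lysine and aromatic genes stay close to 0.

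The sign of each enzyme gene was set beside that of GCN4, whose own arrays differed in sign in TAT12 over AT22 and in TAT12 over S288C as labelled. In AT22 over S288C, where GCN4 was at -0.49, 21 of the 44 enzyme genes (47.7%) were below 0, against 45.8% of all genes. With the second array turned GCN4 was at 0.23, and 19 enzymes (43.2%) were above 0, against 50.5%. For TAT12 over S288C 23 enzymes (52.3%) shared the sign of GCN4, against 53.1%, and 23 shared its sign when turned, against 49.1%. For TAT12 over TTY23 it was 25 (56.8%), against 52.2%. For TAT12 over AT22, where GCN4 was at -0.14, it was 16 (36.4%), against 53.8%, and GCN4 was not called there. These shares are descriptions. The 3 comparisons with TAT12 share that strain, and those with S288C share S288C. Whether they also share RNA is not given.

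Among 13 genes that act on the translation or stability of GCN4, PCL5 and SUI2 were called in AT22 over S288C, GCD1 was called in TAT12 over TTY23, and none was called in the other comparisons as labelled. That is 15.4% of the list against 4.62% of all genes in AT22 over S288C, 0 of 13 with its second array turned, and 7.69% against 5.51% in TAT12 over TTY23. Turning the array of TAT12 over S288C gave 1 call, SUI2 at -0.42, which is 7.69% against 4.91%. The list was chosen with earlier results of these data known, so these shares are descriptions only. PCL5 encodes the cyclin that directs degradation of the Gcn4 protein and is itself a Gcn4 target. Its intensity was 97.1 and 134 in AT22, against 188 and 207 in S288C, and the first array of AT22 was not above background. The log2 ratios were -0.96 and -0.63, with a mean of -0.79 and z = -3.03. SUI2, the alpha subunit of eIF2 that Gcn2 phosphorylates, had 82.2 and 112 in AT22, against 145 and 182 in S288C, with the first array of AT22 again not above background. Its ratios were -0.82 and -0.70, a mean of -0.76 with z = -2.50. With the second array turned, PCL5 was at -0.16 and SUI2 at -0.06, and neither was called. GCD1, a subunit of the exchange factor eIF2B, had 148 and 210.06 in TAT12, against 214 and 311 in TTY23. The ratios of GCD1 were -0.54 and -0.56, a mean of -0.55 with z = -2.64.

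Another list, of 10 further enzymes and carriers of these pathways, was also chosen with earlier results known. Of these, PHA2 and CHA1 were called, both in TAT12 over TTY23, which is 20.0% against 5.51% of all genes. None was called in the other comparisons as labelled, and HOM2, the aspartate semialdehyde dehydrogenase, was called in either comparison with S288C when its second array was turned, 1 of 10 genes each, against 4.02% and 4.91% of all genes. HOM2 was then at -0.23 in AT22 over S288C and 0.56 in TAT12 over S288C. PHA2, the prephenate dehydratase of phenylalanine synthesis, was at -0.31 and -0.51, a mean of -0.41 with z = -2.79. CHA1, which degrades serine and threonine, had ratios of 0.18 and 0.44 and z = 2.36. It was not above background in TTY23, and in TAT12 it was above background on only 1 of the 2 arrays. No fold is therefore given for CHA1. None of the 5 pathway-specific activators LEU3, LYS14, BAS1, PHO2 and ARO80 was called in any comparison or in either turned reading.

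The loop of S288C, AT22 and TAT12 gives the ratio of TAT12 over S288C along different arrays. The direct ratio was set beside the ratio of AT22 over S288C added to that of TAT12 over AT22. The absolute gap between them had a median of 0.353 for the 45 genes, against a median absolute direct ratio of 0.15. The gap was larger than the direct ratio itself in 36 of the 45 genes (80.0%), against 70.5% of all genes. With the second AT22 and S288C array turned the median gap was 0.141, and the gap was the larger in 18 of 45 (40.0%), against 53.8% of all genes. With the array of TAT12 over S288C turned in its place the median gap was 0.254, and the gap was the larger in 28 of 45 (62.2%), against 51.1%. Over all genes the median gap was 0.279 as labelled, 0.186 with the AT22 array turned and 0.168 with the TAT12 array turned. Either change thus lowered it. Both arrays were turned because they ran against each other, and they enter the gap with opposite signs. The drop over all genes follows from that choice and does not say whether either array runs backwards. GCN4 had a direct ratio of 0.13 and a sum of -0.63 as labelled, or 0.09 turned. THR1 had a direct ratio of -0.22 and a sum of -0.82, or 0.11 turned. HIS6 had 1.04 directly and a sum of -0.23, or 0.16 turned, so its direct ratio was not met along the other arrays in either of these readings. TTY23 over S288C, taken as TAT12 over S288C minus TAT12 over TTY23, had a median of -0.08 for the 45 genes and 0.02 for all genes.

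**Figure D4:**
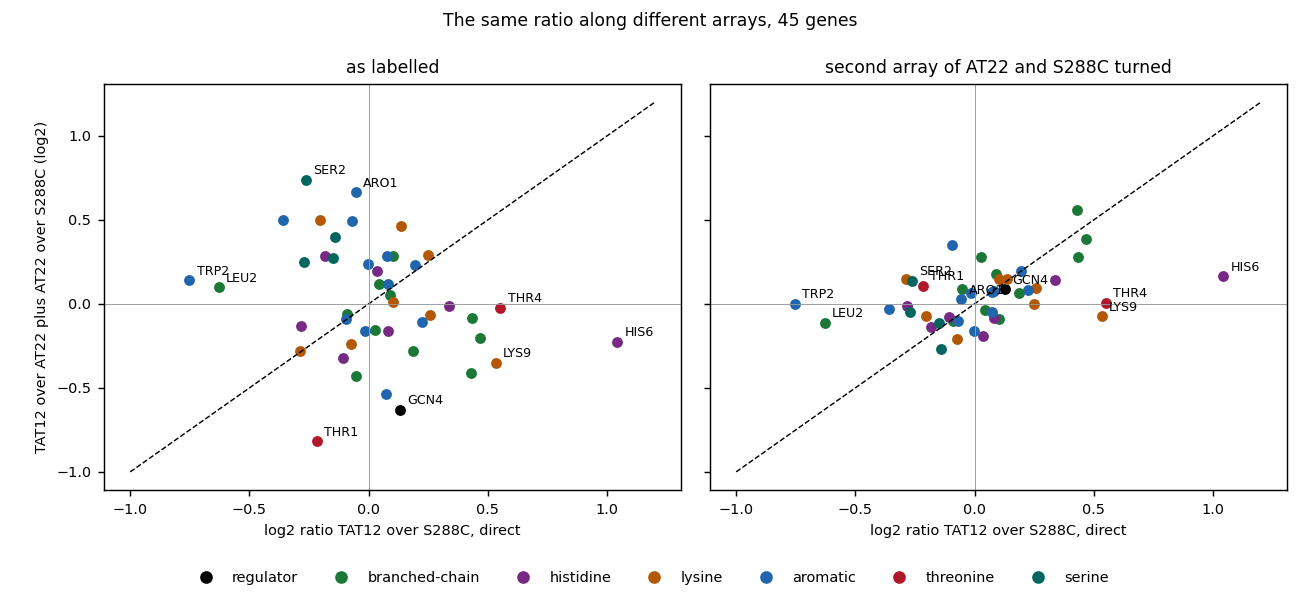
The ratio of AT22 over S288C added to that of TAT12 over AT22 (vertical axis, log2) against the direct ratio of TAT12 over S288C (horizontal axis, log2) for the 45 genes, coloured by pathway, as labelled (left) and with the AT22 array in question turned (right). On the dashed line both would be equal, and the median absolute distance from it is 0.353 on the left and 0.141 on the right.

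The loop leaves 1 residual degree of freedom, on which limma was fitted across all genes with Benjamini-Hochberg adjustment. TTY23 lies outside the loop, so the spread used for TAT12 over TTY23 comes from arrays without TTY23. As labelled, none of the 45 genes, and none of all 6336, had an adjusted p under 0.05 in any comparison. At an unadjusted p under 0.05 it was THR1 in AT22 over S288C, against 1.44% of all genes, and LYS12 in TAT12 over TTY23, against 2.37%. THR1 had a fitted log2 ratio of -0.63 with an adjusted p of 0.999 by limma. No member passed in TAT12 over S288C or TAT12 over AT22, where 3.99% and 1.48% of all genes did. When the AT22 array was turned, 14 members (31.1%) passed at an unadjusted p under 0.05 in AT22 over S288C, against 19.4% of all genes. It was 7 (15.6%) against 13.1% in TAT12 over S288C, 3 (6.67%) against 7.34% in TAT12 over TTY23 and 6 (13.3%) against 10.5% in TAT12 over AT22. When the TAT12 array was turned it was 8 (17.8%) against 20.4%, 12 (26.7%) against 24.6%, 6 (13.3%) against 9.97% and 3 (6.67%) against 5.24%, in the same order. The gap of the loop supplies the residual of these fits, so these shares depend on the same choice of arrays. No member had an adjusted p under 0.05 in either fit, the smallest being 0.0678 by limma in AT22 over S288C with the AT22 array turned. Of all genes, 1 passed after adjustment in TAT12 over TTY23 in each of these fits, and 45 in AT22 over S288C and 218 in TAT12 over S288C did with the TAT12 array turned. A fit to the 8 separate arrays with a dye term took the arrays of a swap as separate observations. A swap counts as 1 replicate here, so the p-values of this fit are too small. This fit also gave no adjusted p under 0.05. At an unadjusted p under 0.05 it gave LEU4 and THR1 in AT22 over S288C (6.69% of all genes), THR1 in TAT12 over S288C (9.0%), LYS12 and ARO8 in TAT12 over TTY23 (5.67%), and none in TAT12 over AT22 (3.27%).

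Signal was low for many genes on these arrays, though less often for the 45 genes than for all genes. A gene was counted as above background where its net signal passed the 95th percentile of the 320 empty spots. Of the 45 genes, 35 were above background in both strains on both arrays of AT22 over S288C, 23 in TAT12 over S288C, 37 in TAT12 over TTY23 and 21 in TAT12 over AT22. Of all genes, 60.7%, 41.2%, 63.2% and 42.0% were, in the same order. TRP5 and SER33 were not above background in any comparison. LYS4 was not above background in either strain in 3 comparisons, nor was TRP3 in 3. This held in TAT12 over AT22 for ILV1, ILV6 and HIS1 as well. For these genes no fold is given.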

How the data were processed

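RNA of 4 strains was hybridised in pairs to 8 printed arrays with Alexa555 and Alexa647, 2 arrays with exchanged dyes for each of 4 comparisons. The authors deposited scanner tables with the intensity and local background of 13056 spots per array. The authors also deposited a standardised score for each gene (a z-score that depends on intensity), made with genArise, and this score was used only as an alternative. The z-scores follow the direction of the comparisons given here, and their scale and centring are those of that tool. The genome build and the scanner software are not given in the sources used here. Backgrounds were corrected by normexp with an offset of 50, each array was normalised by loess on the 12672 gene spots (limma 3.58.1, R 4.3.3), and duplicate spots and the arrays of a swap were averaged after turning the signs (Python 3.11.15, pandas 2.3.3, numpy 2.4.6, matplotlib 3.10.9). Control and empty spots were left out. A z-score used the 100 genes nearest in intensity. limma was fitted to the 4 comparison means with 3 coefficients. The scripts were tested on simulated data. The number of arrays limits the precision. The members and gene lists were chosen with earlier results of these data known. The rule for named genes takes GCN4, the called genes, the highest and the lowest member of each pathway in each comparison, and the isozyme pairs. Where a member had a further probe marked R, the unmarked probe was used.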

Additional observations from a re-analysis of the deposited data

Results flagged for a closer look

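A few genes had ratios of opposite sign in TAT12 over S288C and in AT22 over S288C, on all 4 arrays concerned. These were 6 of the 45 genes (13.3%), against 15.5% of all genes. The arrays concerned include the second arrays that ran against each other, with r = -0.59 over all genes. The criterion therefore rests on that pair, and turning either array of it takes the pattern away from these genes. None of these members was called in either comparison. They included ILV1 and LYS4, which were dim in these arrays. The opposite signs had no test of their own, and limma gave no member an adjusted p under 0.05 in TAT12 over AT22. Among the genes described above, HIS6 was at 1.04 in TAT12 over S288C and -0.25 in AT22 over S288C, LYS9 at 0.53 and -0.21, ARO9 at -0.36 and 0.39, and BAT2 at -0.0892 and 0.0284. Of the further genes, PCL5 was at 0.33 and -0.79 and PHA2 at -0.23 and 0.07. On the arrays that paired the strains directly, TAT12 over AT22 was 0.02 for HIS6, -0.14 for LYS9, 0.11 for ARO9, -0.09 for BAT2, 0.02 for PCL5 and -0.09 for PHA2, so that HIS6, LYS9, ARO9 and PCL5 did not show the gap there. With the second AT22 and S288C array turned, AT22 over S288C was 0.14 for HIS6, 0.06 for LYS9, -0.14 for ARO9 and -0.16 for PCL5. With the second TAT12 and S288C array turned instead, TAT12 over S288C was 0.52 for HIS6, 0.02 for LYS9, 0.23 for ARO9 and -0.26 for PCL5.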

How the results depend on the processing

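No paired analysis was possible because each comparison is 1 dye swap and no replicate numbers are shared. With the second array of AT22 over S288C turned, GCN4 was at 0.23 and THR1 at 0.10. Turning the second array of TAT12 over S288C, a reading chosen after seeing the data, put TRP2 at 0.15, called 2 members and gave a member median of -0.0234. For AT22 over S288C the 2 called members became 1 with the first array alone, with least squares over the loop, with 50 nearest genes and with the spread over all genes, 10 at a z-score of 1, and 0 at a 2-fold ratio. For TAT12 over S288C the 1 called member became 2 without background correction, with median centring and with least squares, 0 with the first array, 4 with the second array, 0 of the 23 members above background everywhere, 3 with the spread over all genes and 9 at a z-score of 1. For TAT12 over TTY23 the 3 called members became 1 on either array alone, 0 by the authors' z-scores, 11 at a z-score of 1 and 0 at a 2-fold ratio. For TAT12 over AT22 the 2 called members became 1 without background correction, with median centring, with the median of the spots, with the first array, with 50 nearest genes and among the 21 members above background everywhere, 0 with least squares, 4 with the spread over all genes, 11 at a z-score of 1 and 0 at a 2-fold ratio. The median ratio of the members went to -0.10 with the first array of AT22 over S288C and to -0.0553 over the members above background in TAT12 over S288C. In TAT12 over AT22 it went to 0.0223 without background correction, 0.0101 with median centring, 0.0292 with the second array and -0.0170 over members above background. By the authors' z-scores the called members were TRP4 and THR1 in AT22 over S288C, and ARO2 and SER2 in TAT12 over AT22. The cause of these changes was not tested. Among the called genes, THR1 kept its call in 9 of 11 alternatives, TRP2 in 8 of 10, SER2 in 7 of 9 in either comparison, HIS6 in 6 of 9, ARO8 in 5 of 9, GCN4 in 4 of 11 and ARO1 in 3 of 10. Each array is dim for many genes, including some of these, and 1 replicate per comparison limits all values.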
